A study of Homo sapiens with 16 samples.

Results

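The genes described here are 39 factors of ribosome biogenesis and the nucleolus, measured over time in MCF10A cells given an inhibitor of the HER2 kinase. Members were chosen by gene symbol, as every row of the deposited intensity table whose symbol is one of the 39, with each probe kept separate. They occupy 39 of the 20589 rows of the table and carry 37 of its 18190 symbols. UTP18 and WDR43 do not occur in the table under these symbols. A row with the older symbol WDR50 was not counted as a member. MCF10A is a nontransformed human breast epithelial cell line, cultured here in Ham's F-12 medium with insulin, epidermal growth factor and hydrocortisone. Treatment began 4 days after plating, in fresh medium that contained CP724,714 at 1 µM. RNA came from parallel cultures every 3 h from 0 to 45 h, and each of the 16 time points was hybridized to 1 Illumina human Ref8v2 array. The 0 h array is from untreated cells. Time points have no replicate arrays, and cells without the inhibitor were not analysed here over the same hours, so the inhibitor, the change of medium at the start and time in culture cannot be told apart.

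Ribosomes are assembled in the nucleolus. RNA polymerase I transcribes a long precursor rRNA, guide RNAs bound to fibrillarin or dyskerin direct the modification of its bases and sugars, and large sets of processing factors, helicases and GTPases cut and fold it while ribosomal proteins are added. These factors leave the particle before it works in translation. Growth signals are known to set the output of this pathway, in part through the transcription factor MYC, and epithelial cells that proliferate make many ribosomes.

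A probe was called above background on an array when its detection p against the negative control beads was under 0.05, and probes with this on at least 3 arrays were tested. Of the member rows, 36 were tested, for 35 genes. POLR1A was above background on 2 arrays and WDR3 on 1. One of the 2 probes of GNL3, ILMN_13040, was above background on 0 arrays, whereas the other, ILMN_18645, was above background on all 16. The levels below are log2 intensities after background correction and quantile normalization, and a change is a difference of log2 intensities. Arrays had a median raw intensity of 210 to 254, with 50.1% to 52.9% of rows above background. Of 13 basal mammary epithelial marker symbols in the table, 9 were above background on all 16 arrays, among them KRT5, KRT17, EGFR and CDH1. KRT14 was above background on 1 array, LAMB3 on 4, TP73L on 10 and ITGA6 on 0. Of 5 luminal and other epithelial markers, KRT8 and KRT18 were above background on all 16 arrays, GATA3 on 15, and ESR1 and PGR on 0. Of the fibroblast, leukocyte and endothelial markers, 0 of 15 were above background on all arrays, while KDR and PECAM1 were so on 15 arrays and CD14 on 12. In bulk RNA, fewer cells of a type and less RNA per cell cannot be told apart.

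The ribosome biogenesis genes shared a course of 3 phases: low at 0 and 3 h, high from 9 to 30 h, and low again from 36 h. On a scale centred on each probe's mean over the 16 arrays, the median member was at -0.56 at 0 h and -0.51 at 3 h. It was at 0.13 at 6 h and 0.44 at 9 h, stayed between 0.26 and 0.34 from 12 to 30 h, and was at 0.08 at 33 h. At 36 h it was at -0.29 and at 45 h at -0.43. Among all tested probes, 54.6% were time-dependent by limma's moderated F-test on a spline of time (adjusted p under 0.05, Benjamini-Hochberg over the 11957 tested probes), and among the members 33 of 36. The 3 that missed the threshold were POLR1B (adjusted p = 0.083), NPM1 (0.13) and NPM3 (0.68).

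**Figure D1:**
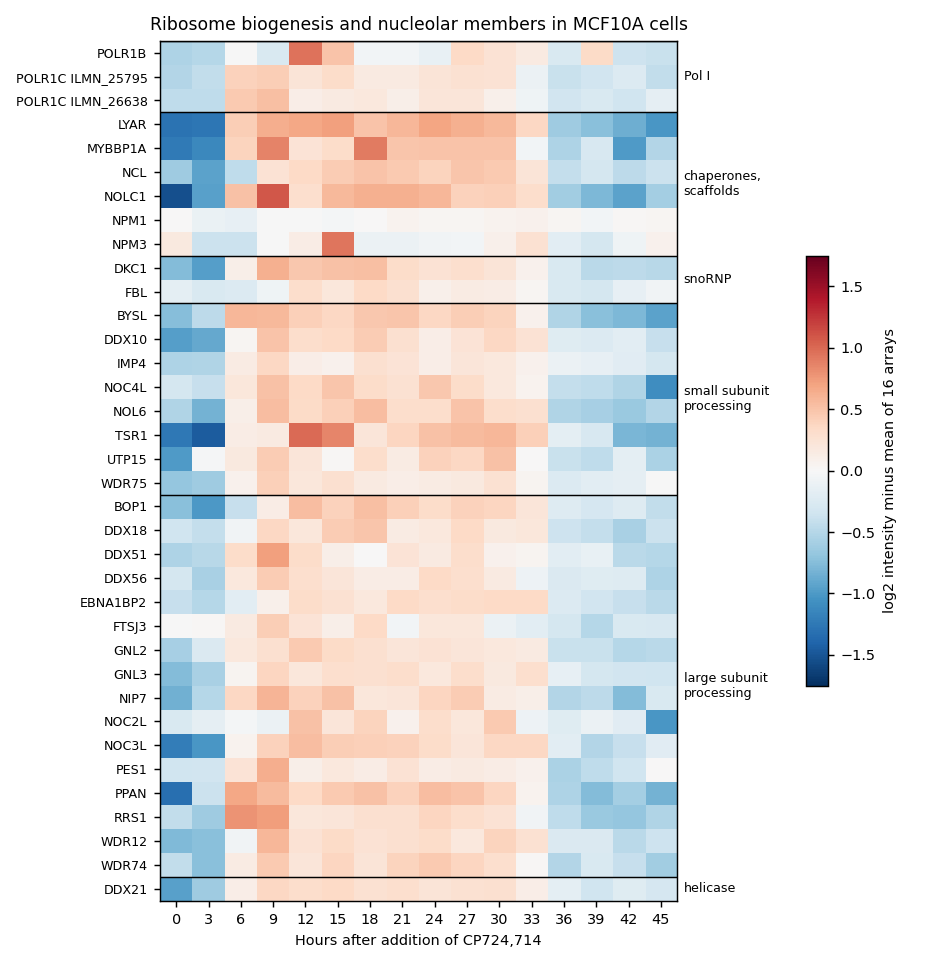
Log2 intensity of the 36 tested member probes minus each probe's mean over the 16 arrays (colour), by hours after addition of CP724,714, with probes grouped by role. Most rows are blue at 0 and 3 h, red from 9 to 30 h and blue again from 36 h, while the row of NPM1 stays near white.

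The highest array of a probe was at 6 or 9 h for 21 probes, between 12 and 21 h for 12 and between 24 and 33 h for 3. The lowest array was at 0 or 3 h for 27 probes, between 36 and 45 h for 8 and at 6 h for 1, NPM1. As a description over 16 arrays, which share their normalization, the Pearson correlation of a member with the median of the other members had a median of 0.91, and 23 of 36 probes were over 0.9. LYAR followed the others most closely (r = 0.99). NPM1 (r = 0.20) and NPM3 (r = 0.30) were the least alike.

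The first change fell between 3 and 6 h. At 6 and 9 h, 30 of the 36 probes were higher than at 0 and 3 h and 0 were lower (limma, adjusted p under 0.05), where 13.2% of all tested probes were higher and 11.5% were lower. The median change of the members was 0.89, or 1.85-fold, and that of all tested probes was -0.01. Both later arrays lay above both earlier arrays for 33 of the 36 members, as they did for 27.4% of all tested probes. The 6 probes that missed the threshold were those of NPM3 (-0.09), NPM1 (-0.02), FBL (0.06), NOC2L (0.15), FTSJ3 (0.29) and POLR1B (0.38). Pairs of time points are not replicates, so the spread behind each p holds the change from 1 array to the next, pooled over 8 pairs. Without the 9 h array 25 members were called.

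The second change had its largest step between 33 and 36 h, but it began earlier. The median member had already gone from 0.26 at 30 h to 0.08 at 33 h. NOC2L, for 1, read 8.88 at 30 h, 8.34 at 33 h and 8.22 at 36 h. The fall after 33 h means here the change from 24-33 h to 36-45 h. From 36 to 45 h, 26 of the 36 probes were lower than from 24 to 33 h and 0 were higher (limma, adjusted p under 0.05, with 32 lower and 0 higher at an unadjusted p under 0.05). Among all tested probes, 18.7% were lower and 19.3% were higher. The median change of the members was -0.63, or 1.54-fold lower, and all 36 changes were below 0. The 4 late arrays all lay below the 4 arrays from 24 to 33 h for 33 of 36 members, as they did for 22.6% of all tested probes. The spread behind each p is pooled over 4 groups of 4 consecutive time points, so it holds the rise within 0-9 h. Without the 0 h array 31 members were called and without the 9 h array 32, although neither array is in this comparison. A miss here does not show that a level held. Between these changes, from 12-21 h to 24-33 h, the median change was -0.06. Here 0 members were higher and 0 lower (limma, adjusted p under 0.05, with 0 higher and 1 lower at an unadjusted p under 0.05), where 0.0251% of all tested probes were lower and 0% higher. The spread in this comparison holds the same early rise, so the lack of calls does not show that levels were flat. In all, 23 probes were called both in the rise and in the later fall, and the share of all tested probes with both calls was not counted. Of the 26 calls in the fall, 17 passed under every alternative, and those of PES1 and MYBBP1A were lost under more than 10 of them. The calls of DKC1 and FTSJ3 were lost under 7 of 23 alternatives each, that of POLR1C under 5, that of DDX56 under 3, and those of NOLC1, GNL3 and WDR12 under 2 each. No label names the chip on which an array lay, and the part of chips in these steps was not tested.

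**Figure D2:**
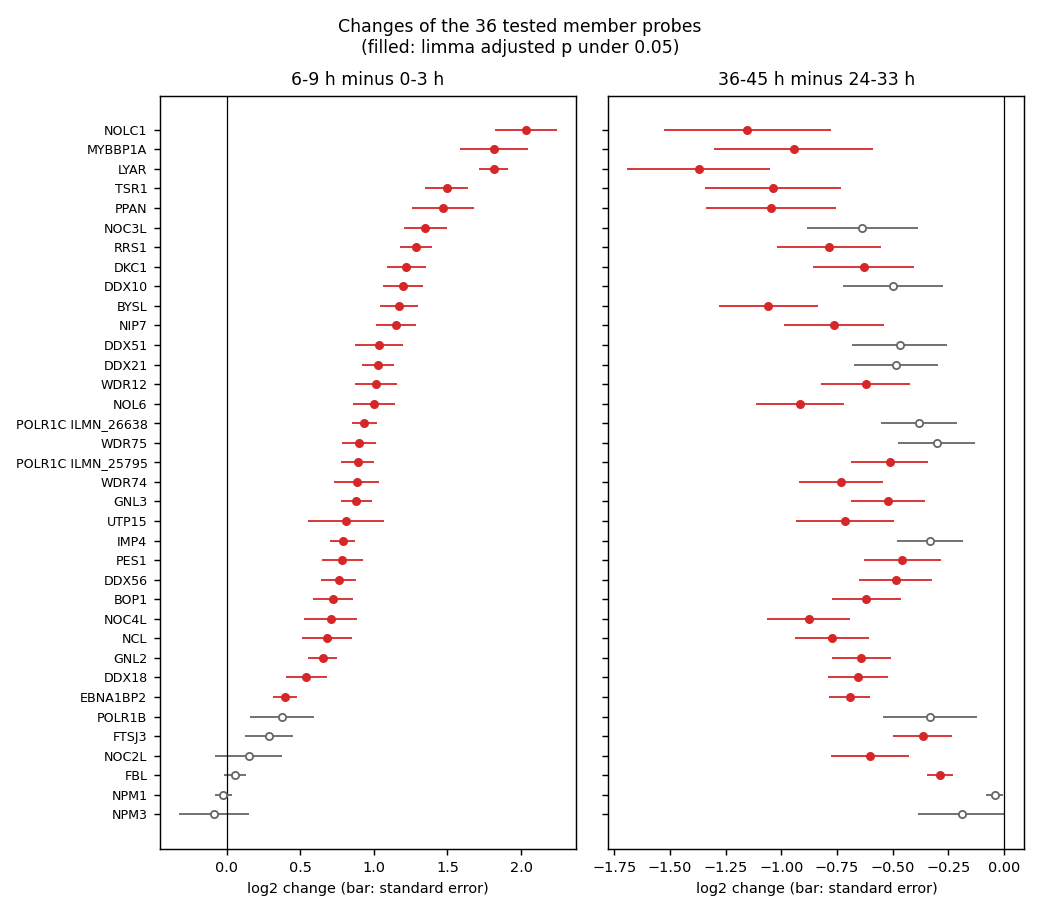
Log2 change of each tested member probe from 0-3 h to 6-9 h (left) and from 24-33 h to 36-45 h (right), with bars for the standard error and filled points for a limma adjusted p under 0.05. On the left 30 points are filled, all above 0, and on the right 26 are filled, all below 0.

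RNA polymerase I makes the precursor rRNA. POLR1C, a subunit that polymerases I and III share, has a pair of tested probes that moved alike. ILMN_25795 read 10.17 and 10.26 at 0 and 3 h and 11.09 and 11.11 at 6 and 9 h, and ILMN_26638 read 11.40 and 11.41 and then 12.31 and 12.37. The rise was 0.89 for the first (standard error 0.11, 1.85-fold, limma adjusted p = 3e-05) and 0.93 for the second (standard error 0.08, 1.91-fold, limma adjusted p = 2e-06). In the later fall ILMN_25795 changed by -0.51 (limma adjusted p = 0.025) and passed the threshold, and ILMN_26638 changed by -0.38 (limma adjusted p = 0.091) and did not. POLR1B, the second largest subunit, was not above background on any array from 0 to 9 h and read 6.88 at 12 h, its highest value. At 12 and 15 h it was at least 1.44-fold higher than at 6 and 9 h (limma adjusted p = 0.0099), where the lower side is set at the lowest detected intensity of each array or the probe's own level if that is higher. This comparison was added after the courses were seen. POLR1A, the catalytic subunit, was not tested.

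Among the nucleolar chaperones and scaffolds, NOLC1, LYAR and MYBBP1A had the largest rises of all 36 probes, while NPM1 and NPM3 did not pass in any planned comparison. NOLC1, which binds small nucleolar ribonucleoproteins (snoRNPs), read 7.01 and 7.59 at 0 and 3 h, 9.04 and 9.62 at 6 and 9 h, and 7.94, 7.76, 7.60 and 7.95 from 36 to 45 h. The rise was 2.03 (standard error 0.21, 4.10-fold, limma adjusted p = 6e-06). The fall after 33 h was -1.15 (standard error 0.37, 2.22-fold lower, limma adjusted p = 0.021). The arrays before and after each step did not overlap, and the 4 late arrays lay above the untreated array.

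LYAR, a zinc finger protein of the nucleolus, had a nearly square course. It read 9.97 and 10.00 at 0 and 3 h, lay between 11.62 and 11.98 on all arrays from 6 to 33 h, and read 10.64, 10.53, 10.40 and 10.24 from 36 to 45 h. The rise was 1.81 (standard error 0.10, 3.51-fold, limma adjusted p = 1.9e-08) and the fall -1.37 (standard error 0.32, 2.59-fold lower, limma adjusted p = 0.0025), the largest fall of the 36 probes. MYBBP1A, a nucleolar protein that binds MYB, was not above background at 0 and 3 h and read 7.60 and 8.08 at 6 and 9 h, which is at least 3.20-fold higher (limma adjusted p = 3.5e-05). It fell by 0.95 after 33 h (limma adjusted p = 0.045), a call lost under 12 of 22 alternatives.

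**Figure D3:**
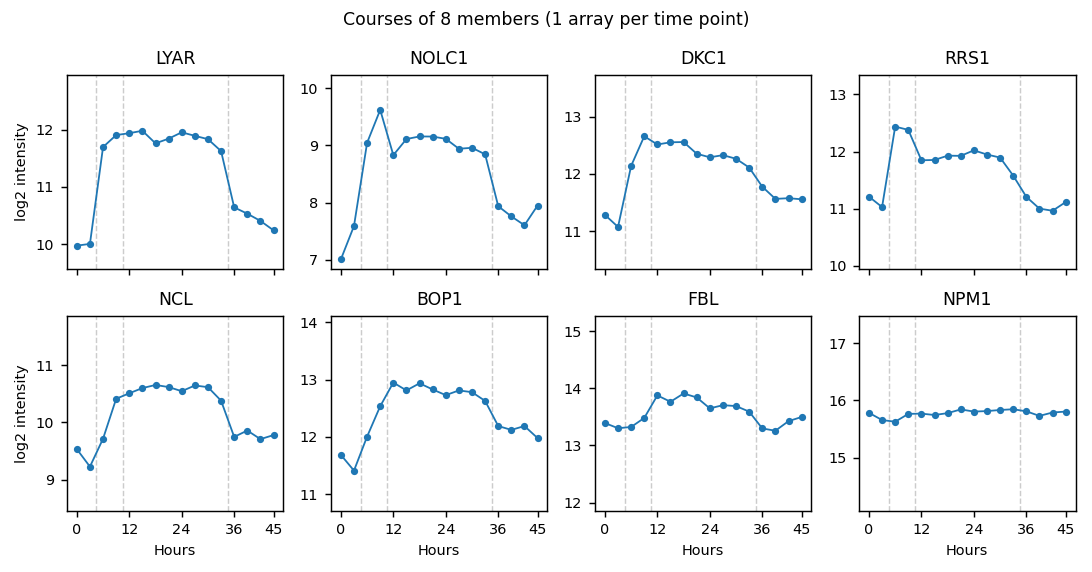
Log2 intensity of 8 members against hours after addition of CP724,714, 1 array per time point, with each panel spanning the same number of log2 units and dashed lines between 3 and 6 h, 9 and 12 h, and 33 and 36 h. LYAR, NOLC1, DKC1 and RRS1 rise by 6 or 9 h, NCL and BOP1 reach their plateau at 9 to 12 h, FBL steps up at 12 h, and NPM1 stays between 15.63 and 15.85.

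NCL (nucleolin), an abundant RNA-binding protein of the nucleolus, reached its plateau at 9 h. It read 9.53 and 9.23 at 0 and 3 h, 9.72 at 6 h and 10.41 at 9 h, and lay between 10.38 and 10.66 from 12 to 33 h. From 36 to 45 h it was between 9.71 and 9.86, below each of those arrays. The rise to 6-9 h was 0.68 (standard error 0.17, 1.61-fold, limma adjusted p = 0.0070), and was not called without the 9 h array. The fall after 33 h was -0.77 (standard error 0.17, 1.71-fold lower, limma adjusted p = 0.0013).

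NPM1 (nucleophosmin), a histone and ribosome chaperone, kept within 15.63 and 15.85 over the 16 arrays, with a largest to smallest ratio of 1.16. Its raw intensity was 75.6% to 88.8% of the highest row of each array, and whether the scanner's range limits this probe was not tested. NPM3, a related chaperone, changed by -0.09 at 6-9 h and by -0.19 after 33 h. It was above background on 0 of the arrays at 6 and 9 h and on both at 12 and 15 h.

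DKC1 and FBL, the enzymes of the H/ACA and C/D snoRNPs, were called at different steps. DKC1 (dyskerin), the pseudouridine synthase, read 11.28 and 11.07 at 0 and 3 h and 12.14 and 12.66 at 6 and 9 h (change 1.22, standard error 0.13, 2.33-fold, limma adjusted p = 9e-06). FBL (fibrillarin), the methyltransferase, read 13.39 and 13.30 at 0 and 3 h and 13.32 and 13.48 at 6 and 9 h, which overlap (change 0.06, standard error 0.07, limma adjusted p = 0.64). FBL then read 13.88 and 13.76 at 12 and 15 h. Its change from 6-9 h to 12-15 h, in a comparison added after the courses were seen, was 0.42 (standard error 0.07, 1.34-fold, limma adjusted p = 0.00096). Both fell after 33 h, DKC1 by 0.63 (limma adjusted p = 0.036) and FBL by 0.29 (limma adjusted p = 0.00090).

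The step from 6-9 h to 12-15 h, a comparison added after the courses were seen, had fewer calls. At 12-15 h 7 of the 36 were higher and 2 lower (limma, adjusted p under 0.05), or 19.4% and 5.56%, where 11.2% and 10.5% of all tested probes were. This difference in shares was not tested. The higher ones were POLR1B, NCL, NPM3, FBL, TSR1, BOP1 and EBNA1BP2, and the lower ones RRS1 and a probe of POLR1C. The calls of TSR1, FBL and RRS1 passed under every alternative. That of NCL (0.49) was lost under 15 of 23, with a change of 0.14 without the 6 h array, and that of NPM3 (0.73) under 6 of 22, with 0.54 without the 6 h array and 0.32 without the 15 h array. Without the 12 h array POLR1B (0.64), BOP1 (0.54), EBNA1BP2 (0.32) and POLR1C (-0.34) were not called, and BOP1 and EBNA1BP2 (0.35 and 0.21) were not called without the 6 h array, nor POLR1B (0.74) without the 9 h array, nor POLR1C (-0.24) under median scaling. NPM3 and POLR1B were not above background at 6 and 9 h, so their sizes in this step are not measured. Their changes were at least 1.35-fold for NPM3 and at least 1.44-fold for POLR1B. The largest changes with a measured level on both sides were TSR1, at 0.78 (1.72-fold, limma adjusted p = 0.0015), and RRS1, at -0.56 (1.47-fold lower, limma adjusted p = 0.0018).

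All 8 tested small subunit processing factors rose at 6-9 h, by 0.71 to 1.50, and 5 of the 8 fell after 33 h. TSR1, a factor bound to late precursors of the small subunit, read 6.89 and 6.68 at 0 and 3 h, 8.26 and 8.30 at 6 and 9 h and 9.13 at 12 h (rise 1.50, standard error 0.15, 2.82-fold, limma adjusted p = 4e-06). BYSL (bystin), also of the small subunit precursor, read 9.33 and 9.62, then 10.65 and 10.64, and ended at 9.55, 9.35, 9.29 and 9.14. BYSL thus rose by 1.17 (2.25-fold, limma adjusted p = 9e-06) and fell by 1.06 (2.08-fold, limma adjusted p = 0.0011), and its late arrays lay on both sides of the untreated array. DDX10, an RNA helicase, rose by 1.20 (2.29-fold, limma adjusted p = 1.4e-05), and its later change of -0.50 did not pass (limma adjusted p = 0.091).

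NOC4L, NOL6, UTP15, WDR75 and IMP4 are components of the processome that forms on the precursor rRNA. NOL6 rose by 1.00 (limma adjusted p = 0.00011) and fell by 0.92 (limma adjusted p = 0.0013). It is 1 of 3 members, with NOC4L and WDR74, whose row holds combined values of several probes, and its detection p crossed 0.05 between arrays. NOC4L rose by 0.71 (1.63-fold), or by 0.55 without the 9 h array and then not called, and fell by 0.88 (1.84-fold), to its lowest value of 7.02 at 45 h. UTP15 rose by 0.81, was above background at 3 h but not at 0 h, and lost its call without the 0 h or the 9 h array. WDR75 and IMP4 rose by 0.90 and 0.79, and their later changes of -0.30 and -0.33 did not pass (limma adjusted p = 0.19 and 0.093). The WDR50 row, the older symbol of UTP18, changed by 0.36 (limma adjusted p = 0.075) and then by -0.34 (limma adjusted p = 0.038).

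Of the 16 tested probes of large subunit factors, 14 rose at 6-9 h and 14 fell after 33 h. PPAN, a factor of early large subunit precursors, read 8.25 and 9.19 at 0 and 3 h and 10.25 and 10.13 at 6 and 9 h (rise 1.47, standard error 0.21, 2.77-fold, limma adjusted p = 0.00011). It fell by 1.05 after 33 h (2.07-fold, limma adjusted p = 0.0087). NOC3L rose by 1.35 (2.54-fold, limma adjusted p = 8.7e-06), from 8.11 and 8.30 to 9.38 and 9.72, and its fall of 0.64 on the log2 scale missed the threshold (limma adjusted p = 0.053).

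RRS1, which helps to place the 5S rRNA in the large subunit, peaked early. It read 11.21 and 11.03 at 0 and 3 h, 12.44 and 12.38 at 6 and 9 h, and between 11.85 and 12.02 from 12 to 30 h. The rise was 1.29 (standard error 0.11, 2.44-fold, limma adjusted p = 8.4e-07). From 36 to 45 h it read 11.21, 11.00, 10.97 and 11.12, no higher than the untreated array.

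BOP1, PES1 and WDR12 form a complex needed for processing of the large subunit rRNA, and their courses differed in shape. BOP1 read 11.68 and 11.41 at 0 and 3 h, 12.00 and 12.53 at 6 and 9 h and 12.95 at 12 h, and rose by 0.72 (1.65-fold, limma adjusted p = 0.00096). PES1 was highest at 9 h, at 10.23, which was 0.47 above its mean from 12 to 21 h, and rose by 0.78 (1.72-fold, limma adjusted p = 0.00062). WDR12 also was highest at 9 h, at 11.37, and rose by 1.01 (2.02-fold, limma adjusted p = 9.9e-05). After 33 h BOP1 and WDR12 each fell by 0.62 (limma adjusted p = 0.0041 and 0.020) and PES1 by 0.46 (limma adjusted p = 0.046). The call of PES1 was lost under 13 of 23 alternatives and that of WDR12 without the 30 h or the 42 h array.

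NIP7, which binds precursors of the large subunit, rose by 1.15 (2.22-fold), and GNL3 (nucleostemin) and GNL2, a pair of nucleolar GTPases, rose by 0.88 and 0.65. The helicases DDX51, DDX56 and DDX18 rose by 1.03, 0.76 and 0.54, and WDR74 by 0.88. Without the 9 h array the change of DDX18 was 0.32 and did not pass (limma adjusted p = 0.16). EBNA1BP2 had the smallest called rise, 0.40 (1.32-fold, limma adjusted p = 0.0023), which was 0.26 and not called without the 9 h array, and the fall with the smallest p of the members, -0.69 (standard error 0.09, 1.62-fold lower, limma adjusted p = 1.4e-05). NOC2L and the rRNA methyltransferase FTSJ3 were not called in the rise and fell later by 0.60 (limma adjusted p = 0.011) and 0.37 (limma adjusted p = 0.037). DDX51 changed by -0.47 in the fall and did not pass (limma adjusted p = 0.096).

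DDX21, a helicase that acts in both rRNA transcription and processing, read 11.46 and 11.80 at 0 and 3 h and 12.53 and 12.78 at 6 and 9 h (rise 1.03, standard error 0.11, 2.04-fold, limma adjusted p = 6.9e-06). It was between 12.53 and 12.76 from 12 to 33 h. From 36 to 45 h it read 12.25, 12.06, 12.20 and 12.12, below every array of the plateau. Its change from 24-33 h, -0.48, missed the threshold (limma adjusted p = 0.052). The pooled spread behind this p holds the early rise of DDX21, with a standard deviation of 0.62 within 0-9 h. The standard deviation was 0.07 within 24-33 h and 0.08 within 36-45 h.

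Because the members moved together, the promoter windows of their genes are shown for 1 motif, the letters CACGTG, the E-box to which MYC binds with its partner MAX. The windows are from RefSeq on GRCh38.p14, with 250 bases before and 50 bases after a gene's start, and the motif reads the same on both strands. Of the 39 members, 35 have a window, and 14 of these (40%) hold the motif. The 14 include UTP18 and WDR43, which have no row under these symbols. The 35 also include POLR1A and WDR3, so the share is not of tested members alone. It occurs in the windows of 2396 of 27305 genes (8.77%), in 849 of 6762 genes of tested probes that could be matched by symbol (12.6%), and in 4 of 64 cytosolic ribosomal protein genes (6.25%). A match is only a run of letters, and no binding was measured. NOLC1, BOP1, RRS1 and DDX18 have no window. The 2 members with the largest rises among those with the motif are shown in full, 5′ to 3′ on the gene's strand with the motif in capitals. That of LYAR is on the minus strand at chr4:4289972-4290271 and that of MYBBP1A on the minus strand at chr17:4555335-4555634.
LYAR: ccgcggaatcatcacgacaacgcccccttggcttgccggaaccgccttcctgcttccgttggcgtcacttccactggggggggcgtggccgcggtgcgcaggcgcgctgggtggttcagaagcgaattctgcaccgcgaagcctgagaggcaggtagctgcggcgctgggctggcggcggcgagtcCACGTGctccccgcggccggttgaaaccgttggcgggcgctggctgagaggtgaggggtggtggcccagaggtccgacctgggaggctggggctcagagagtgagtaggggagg
MYBBP1A: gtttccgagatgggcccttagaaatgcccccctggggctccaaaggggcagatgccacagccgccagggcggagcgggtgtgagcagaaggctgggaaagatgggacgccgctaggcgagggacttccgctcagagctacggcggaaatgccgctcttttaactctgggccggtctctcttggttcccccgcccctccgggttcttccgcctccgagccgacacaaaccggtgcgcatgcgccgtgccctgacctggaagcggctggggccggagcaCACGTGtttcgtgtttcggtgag

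For 7 other members the 30 bases around the motif are shown. The positions are chr6:41921515-41921544 for BYSL, chr10:68956604-68956633 for DDX21 and chr3:52686026-52686055 for GNL3, all on the plus strand. They are chr10:94362903-94362932 for NOC3L, chr19:39846356-39846385 for FBL, chr22:30591880-30591909 for PES1 and chr1:37595917-37595946 for GNL2, all on the minus strand. Counted from the start of the gene, the first base of the motif was at position -31 in DDX21 and at 4 to 29 in the others of these 7. In the windows shown in full it was at -64 in LYAR and at 28 in MYBBP1A. EBNA1BP2, IMP4, NOL6, UTP18 and WDR43, which are not shown, also hold the motif, at positions from -237 in EBNA1BP2, -203 in IMP4 and -89 in UTP18 to 43 in a second window of EBNA1BP2.
BYSL: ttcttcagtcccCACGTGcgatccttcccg
DDX21: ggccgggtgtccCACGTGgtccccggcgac
GNL3: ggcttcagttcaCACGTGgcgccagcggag
NOC3L: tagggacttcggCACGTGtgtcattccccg
FBL: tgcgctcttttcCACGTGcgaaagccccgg
PES1: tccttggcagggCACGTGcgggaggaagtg
GNL2: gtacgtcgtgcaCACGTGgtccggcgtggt

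LYAR, MYBBP1A, BYSL, DDX21, GNL3, NOC3L, PES1 and GNL2 of these rose at 6-9 h, and FBL was called at 12-15 h and not at 6-9 h. EBNA1BP2, IMP4 and NOL6, which also hold the motif, rose too. TSR1, PPAN and DKC1, with rises of 1.22 to 1.50, are members whose windows do not hold these letters. Others without them that rose were NCL, POLR1C, WDR12, WDR74, WDR75, NIP7, NOC4L, UTP15, DDX10, DDX51 and DDX56. NPM1, NPM3, NOC2L, FTSJ3 and POLR1B, also without them, were not called in the rise. NOLC1, BOP1, RRS1 and DDX18, which have no window, rose. A link between the motif and the rise was not tested.

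The MYC probe was higher on the 3 h array than on the 0 h array, a step with no test. It read 11.14 at 0 h and 12.19 at 3 h, and lay between 12.22 and 12.67 from 6 to 45 h. The change from 0-3 h to 6-9 h was 0.90 (standard error 0.21, limma adjusted p = 0.0040). Its change after 33 h was -0.04 (standard error 0.21, limma adjusted p = 0.90). Of the 14 tested probes of the MYC network, 1 was higher and 3 lower at 6-9 h (7.14% and 21.4%, where 13.2% and 11.5% of all tested probes were). The 3 lower ones, named after their values were seen, are MNT (-1.43), MXD4 (-1.60) and MXD3 (-1.36), members of the MXD and MNT families that pair with MAX and are known as repressors of E-box genes. MXD4 read 11.67 and 11.32 at 0 and 3 h and 10.24 and 9.54 at 6 and 9 h, lay between 9.40 and 10.35 from 12 to 33 h, and read 11.40, 11.52, 11.52 and 11.59 from 36 to 45 h. Its change after 33 h was 1.71 (standard error 0.32, limma adjusted p = 0.00044). MXD3, unlike MXD4, was low at 6 and 9 h only. It read 9.43 and 8.95 at 0 and 3 h and 8.22 and 7.44 at 6 and 9 h. At 12 h it read 9.68, above the untreated array, and it lay between 8.72 and 9.68 from 12 to 33 h. MNT changed by 0.63 after 33 h and did not pass (limma adjusted p = 0.090), and MXD3 fell by 0.98 (limma adjusted p = 0.033). Of the 14 probes, 4 were higher and 2 lower after 33 h (28.6% and 14.3%, where 19.3% and 18.7% of all tested probes were). Among them a MYCL1 probe changed by 0.46 (limma adjusted p = 0.0024) and a MAX probe by -0.42 (limma adjusted p = 0.033). By the change from 0-9 h to 36-45 h, another MAX probe (-0.55) and the same MYCL1 probe (-0.29) were lower, while the other probes of these genes did not pass. A probe of MXI1 passed as higher but was above background on only 5 of the 16 arrays, so no size is given. Whether MYC or the MXD and MNT proteins have a part in the members' course was not tested.

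The other genes of the pathway were taken from lists of ribosome biogenesis factors that are not members. Of their 107 tested probes, 63 were higher and 1 lower at 6-9 h (58.9% and 0.935%), with a median change of 0.53. Among all tested probes 13.2% were higher and 11.5% lower there. After 33 h 58 were lower and 5 higher (54.2% and 4.67%), with a median of -0.47, where 18.7% and 19.3% of all tested probes were. By group, 23 of 30 small subunit probes, 23 of 41 large subunit probes, 9 of 14 exosome probes, 5 of 11 RNA polymerase I probes and 3 of 11 snoRNP probes rose at 6-9 h. After 33 h 14, 20, 8, 6 and 10 probes of these groups, in the same order, fell. Some groups are small, and their difference from the shares of all tested probes was not tested. The motif CACGTG was in the windows of 33 of 112 of these factors (29.5%).

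From 0-9 h to 36-45 h, a comparison whose early group holds low and high arrays, 21 of these 107 probes were lower and 4 higher (19.6% and 3.74%), where 15% and 16.2% of all tested probes were. Among the called probes with the largest changes, the RNA polymerase I factor UBTF was at -0.63 and the polymerase subunit TWISTNB at -0.55, and TAF1C, of the promoter selectivity complex, was at 0.32. The 2 probes of NOLA1, an H/ACA protein, were at -0.95 and -0.66. Of the small subunit factors C6orf153 was at -0.53, CIRH1A at -0.52 and NOB1P at 0.38. Of the large subunit factors NOL1, an rRNA methyltransferase, was at -0.62, ITGB4BP at -0.51, C15orf15 at 0.25 and GLTSCR2 at 0.20. Of the exosome EXOSC6 was at -0.70 and EXOSC3 at -0.56. All of these passed the threshold (limma adjusted p under 0.05).

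Probes for the proteins of the cytosolic ribosome itself had medians near 0 in both steps. At 6-9 h 0 of 82 probes were higher and 7 lower (0% and 8.54%), with a median of -0.02. After 33 h 19 were higher and 11 lower (23.2% and 13.4%), with a median of 0.02. Among all tested probes 13.2% were higher and 11.5% lower at 6-9 h, and 19.3% and 18.7% after 33 h. Probes of mitochondrial ribosomal proteins were higher in 23 and lower in 7 of 88 at 6-9 h (26.1% and 7.95%), with a median of 0.07. After 33 h 51 of the 88 were lower and 2 higher (58% and 2.27%), with a median of -0.29. Many ribosomal protein probes have high intensities, and whether the scanner's range limits them was not tested. The difference between these lists and the members was not tested.

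**Figure D4:**
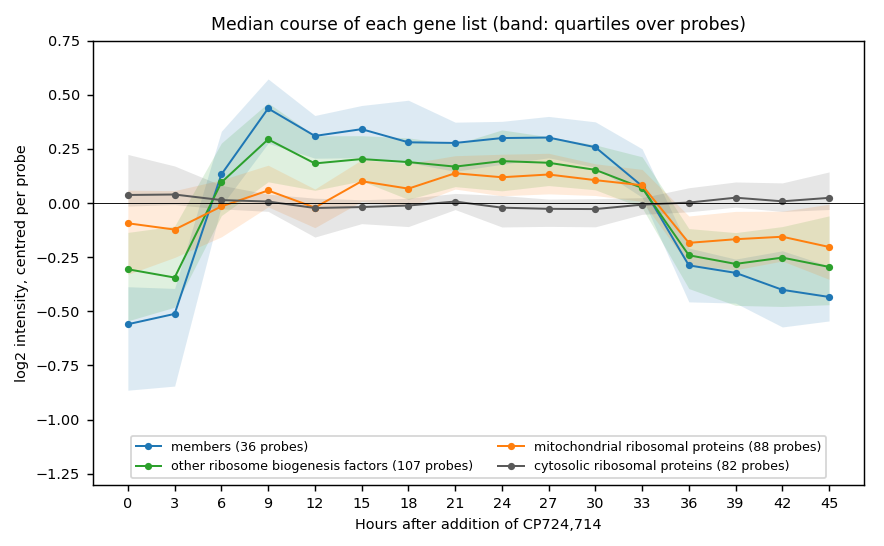
Median log2 intensity, centred per probe, of the 36 member probes, 107 probes of other ribosome biogenesis factors, 88 of mitochondrial and 82 of cytosolic ribosomal proteins, against hours after addition of CP724,714, with bands for the quartiles over probes. The members go from -0.56 at 0 h to 0.44 at 9 h and -0.43 at 45 h, and the cytosolic ribosomal proteins stay near 0.

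Set against the start, the late level of the members depended on which early arrays were used. From 36 to 45 h 4 of 36 members were lower than from 0 to 9 h and 0 higher (limma, adjusted p under 0.05, with 7 lower and 0 higher at an unadjusted p under 0.05), with a median of -0.27, where 15% of all tested probes were lower and 16.2% higher. The 4 were BYSL (-0.73, standard error 0.22, 1.66-fold lower, adjusted p = 0.019), RRS1 (-0.69, standard error 0.23, 1.61-fold lower, adjusted p = 0.032), NOC4L (-0.62, standard error 0.19, 1.54-fold lower, adjusted p = 0.018) and FTSJ3 (-0.49, standard error 0.13, 1.40-fold lower, adjusted p = 0.0091), all from limma. PPAN (-0.56), NOLC1 (-0.50), LYAR (-0.44), NOL6 (-0.39) and MYBBP1A (-0.30) did not pass. FBL (-0.005), NPM3 (0.02), IMP4 (-0.05) and GNL3 (-0.06) were the nearest to 0 in their groups. DDX21 (0.01) is the only probe of its group. POLR1B was the nearest among the RNA polymerase I subunits but was not above background from 0 to 9 h, so no size is given. The group from 0 to 9 h holds the low arrays of 0 and 3 h and the high arrays of 6 and 9 h.

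With 42 and 45 h set against 0 and 3 h instead, 10 members were higher and 0 lower, where 16.1% of all tested probes were higher and 14.2% lower. NOC3L stayed 0.81 above its start (standard error 0.15, 1.76-fold, limma adjusted p = 0.00052). It was followed by DDX10 (0.63), WDR75 (0.57), TSR1 (0.54), BOP1 (0.54), DDX21 (0.53), DKC1 (0.39), LYAR (0.34), GNL3 (0.32) and IMP4 (0.28). With median scaling of the arrays in place of quantile normalization, the first comparison had 0 members lower and 1 higher, and 2793 of all tested probes were higher and 1029 lower in place of 1932 and 1798.

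The step from 0-9 h to 12-21 h, which mixes the low and high early arrays in the same way, had 15 members higher and 0 lower (limma, adjusted p under 0.05), where 15.1% of all tested probes were higher and 14.4% lower, and all 36 changes were above 0 with a median of 0.44. TSR1 (1.21), LYAR (0.99) and BOP1 (0.97) were the largest. Without the 3 h array 5 were called and without the 9 h array 26. The count at 6-9 h, in contrast, was 30 under median scaling and cyclic loess too, although median scaling moved the split of all tested probes from 1583 higher and 1374 lower to 1794 and 1007. In the fall after 33 h it moved that split from 2309 higher and 2233 lower to 1719 and 2933.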

How the data were processed

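Total RNA from 16 time points was hybridized to 1 array each. The authors deposited intensity values on a linear scale, without normalization, with detection p-values measured against negative control beads. The study's methods name quantile normalization, and the summary software is not given in the sources used here. From the deposited intensities, the negative control level of each array was inferred from the detection p-values of the 19092 single-probe rows (166 to 199), background was corrected by normexp with an offset of 16, and arrays were quantile normalized and log2 transformed. The 11957 probes that were above background (p under 0.05) on 3 or more arrays were tested in limma 3.58.1 under R 4.3.3 with an intensity trend and Benjamini-Hochberg adjustment over all of them. Fits were a natural cubic spline in time (3 degrees of freedom, 12 residual), 4 groups of 4 consecutive time points (12 residual) and 8 pairs (8 residual). Groups hold consecutive times and not replicates, so their p-values take change within a group as spread, and the number of arrays limits precision. Every member is accounted for by role. Within a role, the 3 called probes with the largest changes at 6-9 h, the 3 with the largest changes from 0-9 h to 36-45 h and the smallest of the latter were named, with NCL, NPM1, FBL, the RNA polymerase I subunits and MYC, and other pathway genes by the 2 largest called changes of each direction per list. Members and lists were chosen with earlier results of these data known. The scripts were tested on simulated data. Alternatives covered background, offset, scaling, filter, prior, probe choice, curve and the leaving out of each array.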

Additional observations from a re-analysis of the deposited data

How the results depend on the processing

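The direction of the members' changes held under every alternative for every call: of the results for single probes, 1805 kept their side of the threshold, 159 lost the call and 0 reversed. Of the calls of single probes, 25 of 30 in the rise at 6-9 h, 17 of 26 in the fall after 33 h, 5 of 15 from 0-9 h to 12-21 h, 3 of 9 from 6-9 h to 12-15 h and 0 of 4 from 0-9 h to 36-45 h passed under all of them. From 0-9 h to 36-45 h, members lower numbered 0 with median scaling, with 0 and 3 h against 42 and 45 h, and without the step between 21 and 24 h, and 1 with only the 8 arrays compared. Members higher there numbered 1 with median scaling or cyclic loess and 10 with 0 and 3 h against 42 and 45 h. Median scaling left 1 member lower at 12-15 h, cyclic loess gave 1 member higher after 33 h, and fitting a straight line left 1 member time-dependent. The cause was not tested for the scalings. A straight line cannot follow a rise and a fall. With 1 array left out at a time, time-dependent members numbered 33 to 34, members higher at 6-9 h 25 to 30 and lower 0 to 0, and members lower after 33 h 19 to 32 and higher 0 to 0. From 0-9 h to 36-45 h 1 to 14 were lower, with 14 without 0 h, 11 without 3 h and 1 without 6, 9 or 45 h, and 0 to 2 were higher, with 2 without 9 h. From 0-9 h to 12-21 h 5 to 26 were higher, with 6 without 0 h, 7 without 12 h, 6 without 15 h and 9 without 18 h. From 6-9 h to 12-15 h 3 to 8 were higher, with 3 without 6 or 12 h, and 1 to 3 lower, with 1 without 12 h. No paired analysis was possible because each time point has 1 array. Arrays give no depth, and precision is limited by signal over background, which leaves POLR1A, WDR3 and 1 probe of GNL3 without a test.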
